A study of Mus musculus with 4 samples.

Results

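The genes described here are 10 genes of MHC antigen presentation: B2m, Tap1, Tap2, Psmb8 and Psmb9 of the class I route, and Ciita, Cd74, H2-Aa, H2-Ab1 and H2-Eb1 of the class II route. They were chosen by symbol, and a gene was counted as measured where the platform annotation paired a probeset (a group of probes summarised to one value) with its symbol alone. This held for 9 of the 10 among 22180 genes measured in this way, each of the 9 with a single such probeset. The probeset of Cd74 is paired with a second symbol as well, so Cd74 has no value here and the class II genes number 4.

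Expression was measured in pancreatic islets, the endocrine cell clusters that hold the beta cells, from C57BL/6 mice aged 5 to 6 months. One group was WT, and the other carried the GPR41 transgene (labelled 41 Tg, here Tg) in the same strain background, with the WT mice described as littermates. Each group had 2 arrays of total RNA from islets kept in RPMI medium, called biological replicates, and the sources used here do not give whether an array holds islets of one mouse or of several. They do not give the promoter of the transgene either, nor the cells in which it is active. No other allele or agent is named for either group.

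MHC class I molecules display peptides made inside a cell and are found on nearly all nucleated cells, beta cells included. Peptides are cut by the proteasome, which in inflamed tissue carries exchanged catalytic subunits, pumped into the endoplasmic reticulum by the TAP transporter and loaded onto a heavy chain paired with beta 2-microglobulin. Class II molecules display peptides taken up from outside and are made mainly by dendritic cells, macrophages and B lymphocytes, where the coactivator CIITA switches on their genes. Interferon gamma raises both routes.

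Values are deposited log2 expression values on 4 arrays whose medians lay between 6.43 and 6.47. Ffar3, the mouse gene of GPR41, lay at 7.09 and 6.47 on the WT arrays and at 11.02 and 10.98 on the Tg arrays. Islet endocrine genes were bright on all arrays, with Ins2 between 12.46 and 12.59 and Gcg between 13.45 and 13.64. Acinar markers were bright too, with a list mean of 10.11 and 11.10 on the WT arrays and of 10.80 and 10.43 on the Tg arrays. The groups overlapped in all 10 measured genes, and WT replicate 2 lay above WT replicate 1 in all 10. Cell numbers were not measured, so throughout these bulk samples more cells of a type and more RNA per cell cannot be told apart.

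All 9 measured genes were higher on both Tg arrays than on both WT arrays, an arrangement found in 18.6% of all genes. None of the 9 passed limma at an adjusted p under 0.05, where 0.672% of all genes were called higher and 0.225% lower in Tg. At an unadjusted p under 0.05 in limma, 6 of the 9 were higher (6.13% of all genes) and none was lower (5.72%). The genes were chosen with earlier results of these data known, so these counts are a description and not an independent comparison with all genes. The difference was larger in the class II genes, with a median of 1.04 on the log2 scale over 4 genes, than in the class I genes, with a median of 0.20 over 5. The median over all genes was -0.02.

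**Figure D1:**
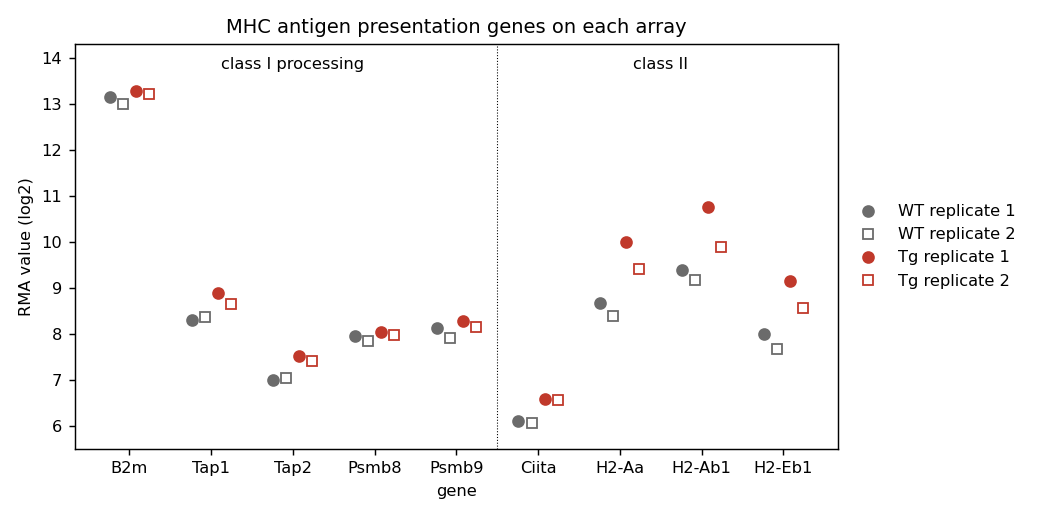
Deposited log2 values (vertical axis) of the 9 measured genes on each of the 4 arrays, WT in grey and Tg in red, filled for replicate 1 and open for replicate 2. In every gene both Tg arrays lie above both WT arrays, by the widest margin in H2-Aa, and Tg replicate 1 lies above Tg replicate 2.

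Among the class II chains, H2-Aa, the alpha chain of the I-A molecule, had values of 8.66 and 8.39 on the WT arrays and of 9.996 and 9.407 on the Tg arrays. The groups were apart, and the Tg arrays were spread more widely than the WT arrays. The difference was 1.17 (SE 0.22), or 2.26-fold, with a 95% confidence interval of 0.64 to 1.71 and an adjusted p of 0.101.

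H2-Ab1 encodes the beta chain that pairs with H2-Aa. It lay at 9.38 and 9.17 on the WT arrays and at 10.76 and 9.89 on the Tg arrays. Here the 2 Tg arrays stood 0.87 apart, a gap close to the difference between the groups. The latter was 1.05 (SE 0.28), or 2.07-fold, with an interval of 0.36 to 1.75 and an adjusted p of 0.230.

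H2-Eb1, the beta chain of the I-E molecule, lay at 7.997 and 7.667 on the WT arrays and at 9.15 and 8.56 on the Tg arrays. C57BL/6 mice carry a deletion at the partner gene H2-Ea and do not display I-E on the cell surface. The H2-Eb1 difference was 1.02 (SE 0.22; adjusted p = 0.153), while the probeset of H2-Ea lay low on all arrays, at 4.88 and 4.75 in WT and at 4.89 and 4.52 in Tg, with overlapping groups. The 3 chains thus had nearly the same size of difference, between 1.02 and 1.17.

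Ciita, the coactivator that governs class II transcription, had replicates within 0.05 of each other in both groups. Its values were 6.11 and 6.06 on the WT arrays against 6.58 and 6.56 on the Tg arrays. The difference of 0.48 (SE 0.10; adjusted p = 0.136) was less than that of each chain, although its interval, 0.23 to 0.73, overlapped theirs.

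The promoters of H2-Aa and H2-Eb1 are shown because the class II chains had larger differences than the class I genes. Class II genes are known for a shared promoter design, and whether it is particular to them was not tested. In that design an X box, bound by RFX, lies a fixed distance before a Y box, bound by NF-Y, and CIITA docks on the factors bound there. The promoter of B2m, a class I gene, is set beside them. Each stretch holds the 150 bases before the annotated start, from RefSeq, build GRCm38.p6: chr17:34287824-34287973 on the minus strand for H2-Aa, chr17:34305717-34305866 on the plus strand for H2-Eb1 and chr2:122147537-122147686 on the plus strand for B2m. Capitals mark every match on either strand to GCAAC (X box core), TGACG (the X2 part beside it), ATTGG (Y box), GAAANNGAA (interferon response element core), TTCNNNGAA (gamma-activated site) or GGANNNTCC (NF-kB site), and adjoining or overlapping matches run together.
H2-Aa: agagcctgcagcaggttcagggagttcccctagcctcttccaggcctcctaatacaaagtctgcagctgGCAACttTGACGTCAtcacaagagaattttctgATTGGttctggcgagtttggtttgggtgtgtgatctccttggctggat
H2-Eb1: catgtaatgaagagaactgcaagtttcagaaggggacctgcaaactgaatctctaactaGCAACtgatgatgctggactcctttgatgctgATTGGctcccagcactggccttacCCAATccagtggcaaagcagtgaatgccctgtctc
B2m: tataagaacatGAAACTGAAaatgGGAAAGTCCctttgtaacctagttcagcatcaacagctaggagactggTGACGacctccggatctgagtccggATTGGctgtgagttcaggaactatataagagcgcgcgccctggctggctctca

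In H2-Aa the GCAAC begins 33 bases before the ATTGG on the same strand, and in H2-Eb1 it begins 32 bases before. Such a pair, with starts 20 to 40 bases apart on one strand, occurs in the 250 bases before the start in 0.874% of the 32851 promoters of the RefSeq table; the spacing was set after these sequences were read. Of the 19 other class II route genes with a promoter in the table, 3 hold it, H2-Eb2 (32 bases), H2-Oa (33) and H2-Ob (30), and 16 do not, among them H2-DMa, H2-DMb1, H2-DMb2 and Ctss. The search took these exact letters only, so a promoter without a match is not shown to lack the design. Singly, GCAAC occurs in 29.9% of promoters, TGACG in 17.8% and ATTGG in 33.8%.

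B2m holds a TGACG at -78 and an ATTGG at -53, counted in bases from the annotated start, on the same strand. H2-Aa holds both in that order too, at -74 and -48. B2m has no GCAAC in the window, and it has a GAAANNGAA (7.13% of promoters) followed by a GGANNNTCC (7.27%). The starts of Tap1 and Psmb9 lie 225 bases apart in opposite directions, so their windows share most letters, with 1 GCAAC, 1 TGACG and 1 ATTGG between them. Psmb8 holds a TTCNNNGAA (7.02%). In all, 6 of the 9 measured genes had a promoter in the table. Of 167 measured genes whose promoter holds the spaced pair, 79 were higher in Tg, and of all 16990 measured genes with a promoter in the table, 7662 were. The median difference was -0.02 in both sets.

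**Figure D2:**
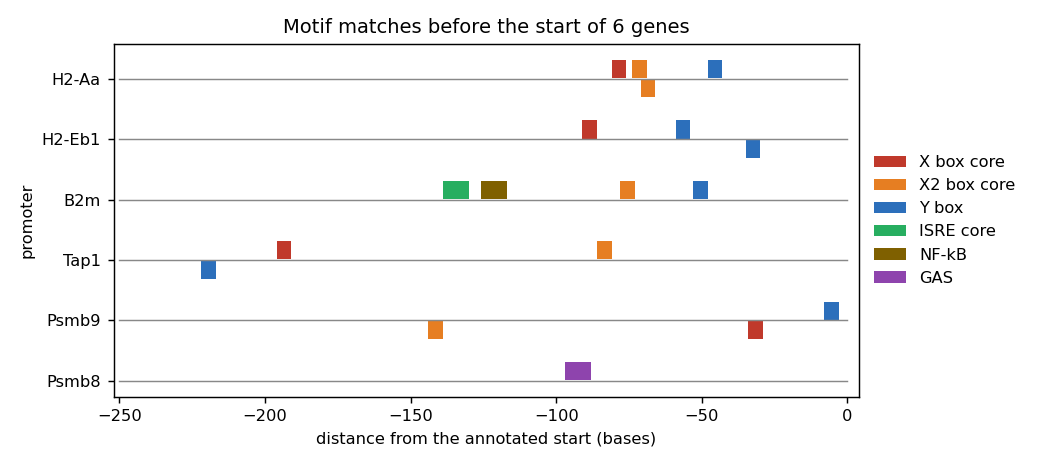
Positions of motif matches in the 250 bases before the annotated start (horizontal axis, distance in bases) of the 6 measured genes with a promoter in the table, matches on the gene's strand above the line and those on the other strand below it. H2-Aa and H2-Eb1 show an X box core followed by a Y box at nearly the same spacing of 33 and 32 bases, and the GAAANNGAA match is seen in B2m alone among these 6.

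The class I genes lay closer together between the groups. Tap1 and Tap2 encode the paired chains of the peptide transporter and had nearly equal differences. Tap1 lay at 8.29 and 8.36 on the WT arrays and at 8.88 and 8.65 on the Tg arrays, a difference of 0.44 (SE 0.12; adjusted p = 0.250). Tap2 lay at 6.99 and 7.04 on the WT arrays and at 7.52 and 7.41 on the Tg arrays, a difference of 0.45 (SE 0.11; adjusted p = 0.177). In both, the gap between the groups was wider than that between replicates.

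Psmb8 and Psmb9 encode catalytic subunits of the immunoproteasome and lie beside the Tap genes in the MHC. Psmb8 lay at 7.95 and 7.84 on the WT arrays and at 8.03 and 7.96 on the Tg arrays (difference 0.10, SE 0.11). Psmb9 lay at 8.12 and 7.91 on the WT arrays and at 8.29 and 8.14 on the Tg arrays (difference 0.20, SE 0.13). For both genes the nearest WT and Tg arrays were less than 0.02 apart, and the confidence intervals, -0.16 to 0.37 and -0.12 to 0.51, included 0.

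B2m, the light chain of every class I molecule, was among the brightest genes of each array. It lay at 13.15 and 13.00 on the WT arrays and at 13.28 and 13.22 on the Tg arrays (difference 0.17, SE 0.11). So near the top of the scale differences may be compressed, and this was not tested. Across the class I genes the upper ends of the intervals lay between 0.37 and 0.74, below the fitted difference of each class II chain. The chains' own intervals began at 0.36 for H2-Ab1, 0.47 for H2-Eb1 and 0.64 for H2-Aa. That of H2-Ab1 overlapped the interval of every class I gene measured. That of H2-Eb1 overlapped those of Tap1, Tap2 and Psmb9, and that of H2-Aa those of Tap1 and Tap2. Whether the classes differ was not tested.

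Averaged by array, the class I genes had a mean of 8.90 and 8.83 on the WT arrays and of 9.20 and 9.08 on the Tg arrays. The class II genes had a mean of 8.04 and 7.82 on the WT arrays and of 9.12 and 8.60 on the Tg arrays. Between the groups the class I mean differed by 0.27 and the class II mean by 0.93, so the distance between the means changed by 0.66. That distance, class II minus class I, was -0.86 and -1.01 on the WT arrays (SD 0.10, n = 2) and -0.08 and -0.47 on the Tg arrays (SD 0.28, n = 2). The groups did not overlap, and the change was larger than the spread in either group. The genes were chosen with these values known, so no p is given, and with 2 arrays a group the smallest two-sided p of an exact permutation test is 0.333.

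Tg replicate 1 lay above Tg replicate 2 in all 9 genes, by 0.01 in Ciita to 0.87 in H2-Ab1, an order found in 48.5% of all genes. Without Tg replicate 1 the class II median was 0.67, and without Tg replicate 2 it was 1.39. The class I median was 0.30 without WT replicate 1 and 0.10 without WT replicate 2. When single arrays were removed, Psmb9 ranged from 0.09 to 0.30, Psmb8 from 0.05 to 0.16, B2m from 0.10 to 0.25, H2-Ab1 from 0.62 to 1.49 and H2-Eb1 from 0.72 to 1.32.

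Of 29 further genes of the class I route, 22 were measured, and none passed the test (9 higher and 13 lower in Tg, where 45.7% of all genes were higher; median -0.03). Both Tg arrays lay above both WT arrays in 4 of these 22, an arrangement found in 18.6% of all genes. Nlrc5, the coactivator of class I genes and a relative of Ciita, was the only one with an unadjusted p under 0.05, at 5.45 and 5.47 in WT and 5.79 and 5.95 in Tg (difference 0.41, SE 0.11; adjusted p = 0.230). The classical heavy chain gene H2-K1 lay at 11.97 and 11.79 in WT and 11.90 and 11.98 in Tg, with a difference of 0.06 (SE 0.12). Tapbp, which encodes the loading factor tapasin (-0.03), the trimming peptidase gene Erap1 (-0.03) and the chaperone gene Calr (0.01) had overlapping groups. The proteasome activator subunits Psme1 (-0.18) and Psme2 (-0.01) and the immunoproteasome subunit Psmb10 (0.09) did not pass either.

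Some heavy chain genes are near-identical copies of each other. In all, 6 probesets were paired with several symbols of which at least 1 belonged to a class I heavy chain gene. Their differences ran from -0.19 to 0.51 with a median of 0.23, and none passed in a limma fit of all 27037 probesets, with 1 at an unadjusted p under 0.05. Subunits of the standard proteasome core had a median difference of 0.07 over 13 measured genes, with none past the test and 0 at an unadjusted p under 0.05. Among them Psmb5, the subunit that Psmb8 replaces, differed by 0.02 and Psmb6, which Psmb9 replaces, by -0.01.

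Of 26 further genes of the class II route, 24 were measured, and 2 passed the test, both higher in Tg (0.672% of all genes). Of the 24, 15 were higher and 9 lower in Tg, where 45.7% of all genes were higher, and the median difference was 0.05. At an unadjusted p under 0.05 in limma, 8 were higher (6.13% of all genes) and none was lower (5.72%). H2-DMb2 rose from 5.80 and 5.71 in WT to 7.32 and 6.93 in Tg (difference 1.37, SE 0.16; adjusted p = 0.033). It encodes a beta chain of H2-DM, which exchanges peptides on class II molecules. The near-identical neighbour H2-DMb1 lay at 4.60 on both WT arrays and at 4.79 and 4.39 on the Tg arrays, and how the probesets divide the signal of such copies is uncertain. The alpha chain gene H2-DMa lay at 7.60 and 7.28 in WT and at 8.50 and 7.94 in Tg (difference 0.77, SE 0.22; adjusted p = 0.250).

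Ctss, the cathepsin that trims the invariant chain in antigen-presenting cells, rose from 7.85 and 7.55 in WT to 8.90 and 8.79 in Tg (difference 1.14, SE 0.14; adjusted p = 0.035). Lgmn, another lysosomal protease, differed by 0.69 (SE 0.10; adjusted p = 0.058). The costimulatory ligand genes Cd80 (0.95, SE 0.15; adjusted p = 0.065) and Cd86 (0.72, SE 0.14; adjusted p = 0.108) had groups that did not overlap.

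H2-Eb2 and H2-Ob had the widest spread in Tg. H2-Eb2 lay at 5.64 and 5.67 in WT and at 8.03 and 6.51 in Tg, and H2-Ob, a chain of the H2-O inhibitor of H2-DM found mainly in B cells, at 6.70 and 6.42 in WT and 8.61 and 6.89 in Tg. Tg replicate 1 was the highest array in both.

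The RFX subunits Rfx5 (0.08), Rfxank (0.02) and Rfxap (-0.16) and the NF-Y subunits Nfya (-0.07), Nfyb (-0.20) and Nfyc (-0.16) did not pass. Nor did the other lysosomal genes of the list, Ctsb (0.22, with both Tg arrays above both WT arrays), Ctsd (0.02), Ctsl (-0.13) and Ifi30 (-0.01), the last a thiol reductase of antigen processing. Whether these differ from the class II chains was not tested.

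**Figure D3:**
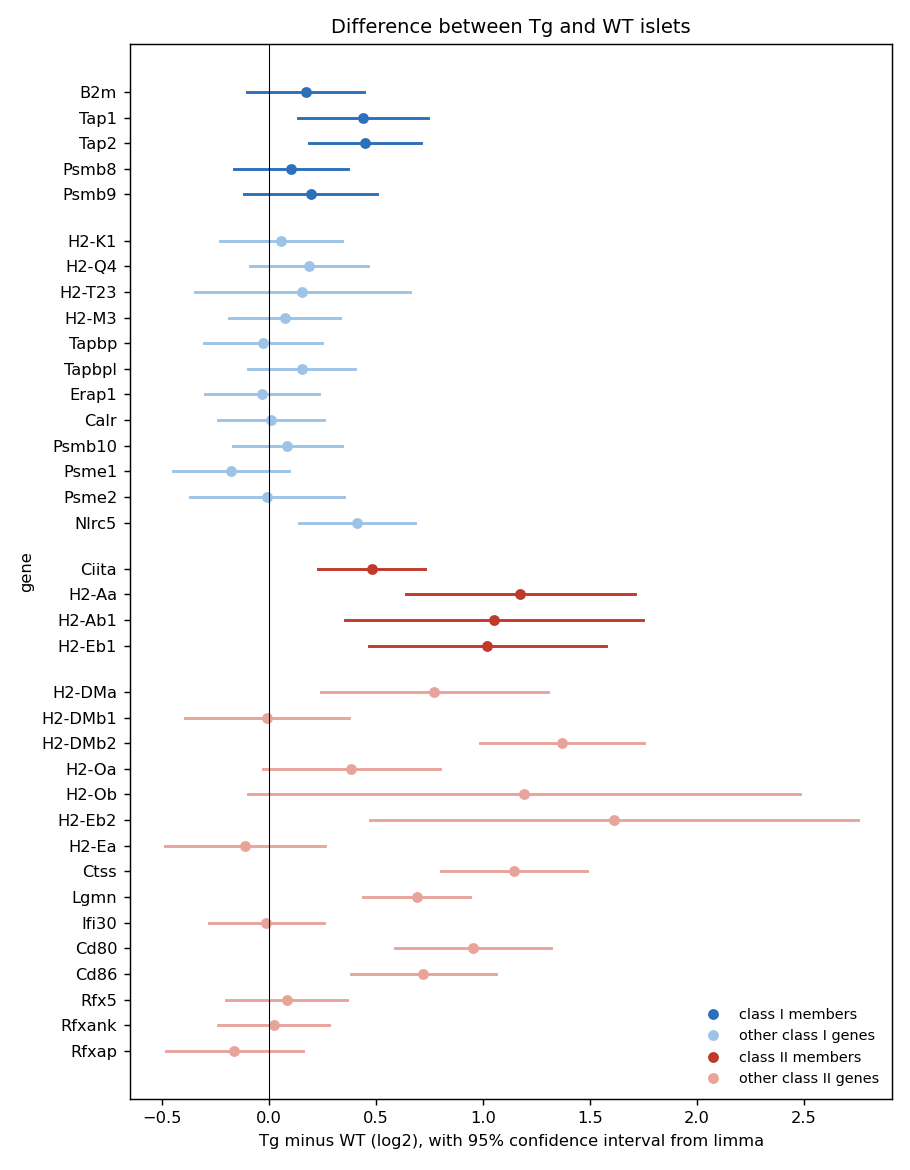
Fitted log2 difference, Tg minus WT, with its 95% confidence interval from limma (horizontal axis) for the 9 measured genes and for 27 further genes of both routes. H2-Aa, H2-Ab1, H2-Eb1, H2-Eb2, H2-Ob, H2-DMb2 and Ctss lie at or above 1.02, and the class I genes drawn lie at 0.45 or below. The other class II route genes drawn lie below 1.02, among them H2-DMa (0.77), Ciita (0.48) and H2-Oa (0.39). H2-DMb1 (-0.01), H2-Ea (-0.11) and Rfxap (-0.16) lie below the zero line.

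Of the interferon gamma axis, 12 of 13 genes were measured, and 2 rose, the chemokine genes Cxcl9 (0.94, SE 0.12; adjusted p = 0.043) and Cxcl10 (1.02, SE 0.13; adjusted p = 0.039). Ifng itself lay low, at 5.06 and 4.66 in WT and 4.70 and 4.62 in Tg. Irf1, which drives class I processing genes after interferon gamma, was lower on both Tg arrays (difference -0.27, SE 0.12; adjusted p = 0.462). Irf8, a factor of myeloid cells and B lymphocytes, differed by 1.06 (SE 0.18; adjusted p = 0.081). The list's median difference was 0.20, and 0.672% of all genes passed the test as higher in Tg.

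Leukocyte markers are given beside these values because class II molecules are made mainly by some leukocytes. For the counts in this and the later lists, 45.7% of all genes were higher in Tg. Both Tg arrays lay above both WT arrays in 18.6% of all genes. In limma 6.13% of all genes were higher at an unadjusted p under 0.05, and 0.672% passed the adjusted threshold as higher. All 8 pan-leukocyte genes were higher on both Tg arrays (median difference 1.12), and 3 rose: Cd53 (1.74, SE 0.17; adjusted p = 0.021), Coro1a (0.94, SE 0.10; adjusted p = 0.031) and Cd48 (0.99, SE 0.13; adjusted p = 0.040). The mean of that list was 6.77 and 6.70 on the WT arrays against 8.12 and 7.60 on the Tg arrays. Ptprc, which encodes the leukocyte antigen CD45, lay at 6.53 and 6.35 in WT and 8.60 and 7.44 in Tg. The part of leukocytes in the class II difference was not tested.

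B lymphocyte markers were higher in 10 of 10 genes, with a median difference of 1.12, and 8 had groups apart; the list mean was 6.32 and 6.43 in WT and 7.94 and 7.63 in Tg. Cd79b lay at 7.39 and 7.20 in WT and 9.67 and 8.53 in Tg, and Ms4a1, which encodes CD20, at 5.85 and 5.75 in WT and 8.203 and 6.810 in Tg, with Tg replicate 1 highest. By contrast the plasma cell gene Jchain was highest on Tg replicate 2, at 10.06 against 8.47, and so was Ighm, at 12.77 against 11.03. Jchain and Ighm had the largest differences of the list, 3.89 and 3.06, and raise its mean. No gene of this list passed the test (6 at an unadjusted p under 0.05 in limma).

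Macrophage and monocyte markers were higher in 19 of 20 genes (median difference 0.47; none past the test and 12 at an unadjusted p under 0.05), with means of 6.74 and 6.65 in WT and 7.23 and 7.32 in Tg. Cd68 lay at 9.60 and 9.49 in WT and 10.31 and 10.27 in Tg (adjusted p = 0.053). Tg replicate 1 was the higher Tg array in 7 of these 20 genes, in 8 of 10 B lymphocyte, 8 of 12 dendritic cell, 10 of 13 T lymphocyte and NK and 12 of 12 endothelial genes, and in all 5 class I and all 4 class II genes.

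Dendritic cell markers were higher in 9 of 12 genes (median difference 0.24), with groups apart in 8, 6 at an unadjusted p under 0.05 and means of 6.37 and 6.25 in WT and 6.71 and 6.62 in Tg. Ccr7, a chemokine receptor of migrating dendritic cells and lymphocytes, rose (1.502, SE 0.17; adjusted p = 0.033). Irf4 (0.93), Cd83 (0.41) and Cd209a (0.32) did not pass. Of the defining genes, Zbtb46 lay between 6.19 and 6.35 and Flt3 between 5.46 and 5.66 over the arrays, and Itgax, which encodes CD11c, lay at 5.78 and 5.35 in WT and 6.21 and 5.92 in Tg.

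T lymphocyte and NK markers had a median difference of 0.23 over 13 genes, with Cd3e at 6.37 and 6.35 in WT and 7.56 and 6.96 in Tg, and means of 5.40 and 5.29 in WT and 5.84 and 5.61 in Tg. Endothelial cells can also carry MHC molecules, and their 12 markers were all higher (median 0.33; means of 7.75 and 7.56 in WT and 8.21 and 7.93 in Tg; none past the test and 7 at an unadjusted p under 0.05). Islet endocrine markers had a median of -0.08, with 4 of 12 higher. None of the cell types' parts in the MHC differences was tested.

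**Figure D4:**
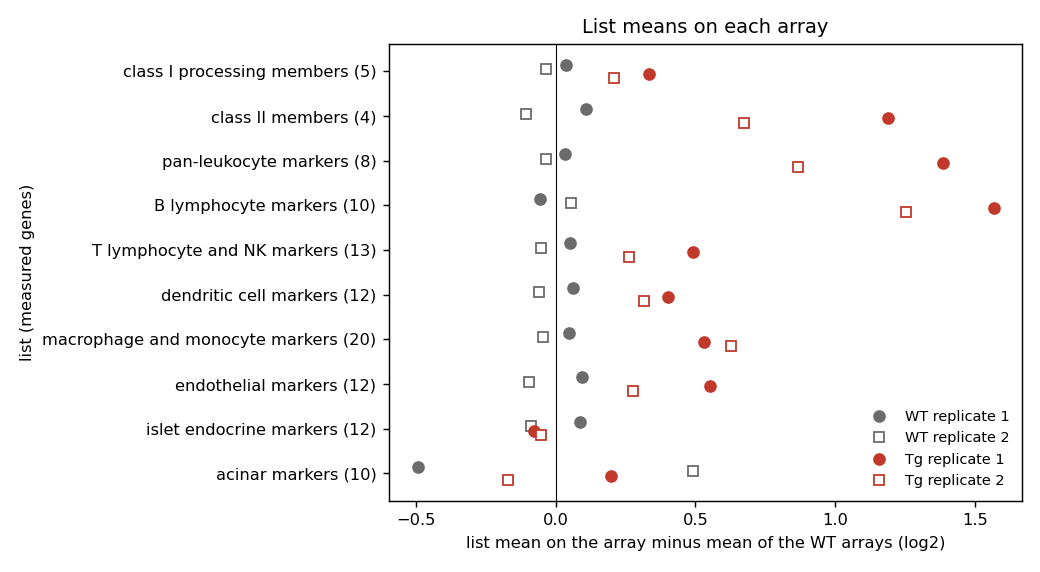
Mean log2 value of each list on an array minus its mean over the WT arrays (horizontal axis), with WT in grey, Tg in red, filled points for replicate 1 and open points for replicate 2; the number of measured genes stands in brackets. Both Tg arrays lie above both WT arrays in all means but the islet endocrine and acinar ones, where the groups overlap. The mean differs by 0.93 in class II and 0.27 in class I, by 1.41 in the B lymphocyte and 1.13 in the pan-leukocyte list. Jchain (3.89) and Ighm (3.06) raise the B lymphocyte mean. In the T lymphocyte, dendritic cell, macrophage and endothelial lists the mean differs by 0.36 to 0.58. Tg replicate 1 lies below Tg replicate 2 in the macrophage and islet endocrine means and above it in the others.

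Across the array, the 5 named genes outside the group whose values ran closest to the class II mean profile were Cxcr4, Arhgap45, Fli1, S1pr1 and Plek. Likeness was the Euclidean distance over the 4 arrays between values centred on each gene's own mean, among 10537 genes brighter than the median, and ranged from 0.03 for Cxcr4 to 0.13 for Plek, where the profile itself had a length of 1.01. Cxcr4, a chemokine receptor gene, lay at 8.49 and 8.26 in WT and 9.60 and 9.06 in Tg (difference 0.95, SE 0.20; adjusted p = 0.139). Closest to the class I profile were Mcm4, Tmem189, Tmem41a, Eps8 and Rgs5, at distances of 0.02 to 0.04 from a profile of length 0.29. With 4 arrays many genes can run alike, and no p is given.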

How the data were processed

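Per the labels' protocols, 250 ng of islet total RNA was labelled; the arrays were Affymetrix Mouse Gene 2.0 ST. Deposited values span 2.87 to 13.9 and were taken as log2; Partek and RMA (background correction, quantile normalisation, probe summary) are named in the submitters' processing notes, without versions. The sources used here give no genome build for the probesets. Probesets with 1 symbol (23521 of 27037; 1814 had several, 1702 none) were kept, the brightest by mean where a gene had several.

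Tg minus WT was fitted with limma 3.58.1 (lmFit, eBayes; R 4.3.3), without a filter on dim genes, and p-values were adjusted by Benjamini-Hochberg over 22180 genes. The residual degrees of freedom were 2, to which moderation added 3.76, and the number of arrays limits the precision. The p-values measure the spread between these arrays, with each gene's variance drawn by moderation toward that of all genes. Without moderation the SE was 0.33 for H2-Aa, 0.45 for H2-Ab1, 0.34 for H2-Eb1 and 0.02 for Ciita. With moderation it was 0.22, 0.28, 0.22 and 0.10 for these genes. The fit was tested on simulated data. The members and lists were chosen with earlier results of these data known; 177 of 195 listed symbols were measured. Genes named are the members, those of smallest p in each list (at most 6), a fixed set of regulators and markers, and the 5 most like each class profile. Psmb5, Psmb6, H2-Ea, H2-Ob, Ins2, Gcg, the RFX, NF-Y and lysosomal genes, H2-K1, Erap1, Calr, Psme2 and H2-Oa were named for their roles after their values were seen. Motifs were searched on both strands in Python 3.11.15. The alternatives tried changed the handling of probesets, the level filter, normalisation, centring, the variance model, the replicate block and the arrays included.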

Additional observations from a re-analysis of the deposited data

How the results depend on the processing

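None of the 9 measured genes passed the adjusted threshold in any of the 14 alternatives run, with Ciita below the limit of the level filter and so without a value there. The differences could move in 6 of them only (quantile normalisation, centring and each array left out). The others keep the fitted difference by construction. Leaving out 1 array could not reverse a direction, since both Tg arrays lay above both WT arrays in all 9 genes. With quantile normalisation and with centring the direction could change, and it was kept in all 9 genes. H2-Aa ranged from 0.88 to 1.47 and H2-Ab1 from 0.62 to 1.49 over these 6 alternatives. At an unadjusted p under 0.05, 6 of the 9 passed by limma, 2 without moderation and 5 without Tg replicate 1. Over all genes, 199 were called as reported, 347 with a variance trend and robust prior, 0 by an ordinary linear model without moderation (1928 at an unadjusted p under 0.05), 24 with the replicate block and 38 to 135 when single arrays were removed, which assumes that a group of 1 array varies like the other group. The cause was not tested. With each array left out, the class II median ranged from 0.67 to 1.39, the class I median from 0.10 to 0.30 and the change in the distance between the class means from 0.46 to 0.86. Over all genes, the difference between the WT replicates and that between the Tg replicates had a correlation of -0.06, so arrays of the same number were not taken as pairs; with the replicate block 0 of the 9 genes were called (6 at an unadjusted p under 0.05), and the block cannot move the differences in this balanced design. Dim genes, close to background, have differences that arrays understate.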
